A study of Homo sapiens with 6 samples.

Results

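The interferon-stimulated genes described here are 51 genes, chosen by symbol out of the 24462 gene symbols of the count files. They span the receptors that bind interferon, the factors that carry the signal, and the antiviral and growth-restraining genes that are switched on at the end of it. The list was drawn up with the results of the same 6 libraries known, so the levels, fold changes and calls of the 51 members describe these libraries and are not independent evidence for a change of the group. Each member has 1 entry in every file, and its level is given as CPM, its count scaled to the same total in every file. The libraries come from 2 human lines. The first, labelled HCEC 1CT_WT and called 1CT, is made of human colonic epithelial cells immortalized in culture, and the second, labelled HCEC 1CT_APC KD and called 1CT-A, is the same line depleted of APC, the tumor suppressor that holds β-catenin in check. Both lines are untreated and grow in the same medium with epidermal growth factor, hydrocortisone, insulin, selenite, transferrin and a low amount of serum, and no interferon is named in it. There are 3 libraries of each line, and nothing in the labels says whether they come from separate cultures, so the spread between them may be technical. Whether 1CT carries a control vector and whether 1CT-A is 1 clone are not given in the sources used here, so the depletion of APC and any other difference between the lines cannot be told apart.

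The libraries hold 7788679 to 8452258 counts in 1CT and 11158108 to 12602988 counts in 1CT-A, so 3 counts, taken as the lowest visible level, correspond to at most 0.385 CPM in 1CT and 0.269 CPM in 1CT-A. APC itself has 417, 363 and 363 counts in 1CT and 351, 342 and 433 counts in 1CT-A, which is 46.6 ± 2.75 CPM against 31.9 ± 2.21 CPM (SD, n = 3) and a log2 fold change of -0.58 (SE 0.09, adjusted p = 1.8e-04 by edgeR's quasi-likelihood test). The epithelial label has weak backing in these counts. EPCAM, VIL1 and CDX1 have no count in any library, and 5 of 9 epithelial markers never exceed 3 counts. The summed level of the 9, mostly KRT18, is 13.4 to 17.4 CPM in 1CT against 3.23 to 7.20 CPM in 1CT-A. KRT18 has 84, 109 and 82 counts in 1CT and 36, 80 and 62 counts in 1CT-A, a log2 fold change of -1.19 (SE 0.23, adjusted p = 8.8e-04 by edgeR). KRT19 has 20, 27 and 34 counts in 1CT and 0 in every 1CT-A library, so it could be tested only through 1CT. KRT8 and CDH1 have at most 14 and 4 counts in any library. All 9 mesenchymal markers are counted, with summed levels, mostly VIM, COL1A1 and COL1A2, of 4711 to 5755 CPM in 1CT against 4382 to 4696 CPM in 1CT-A. They do not differ in 1 direction. At an adjusted p below 0.05 by the same test, COL3A1 and DCN are higher in 1CT-A, with log2 fold changes of 2.37 (SE 0.18) and 0.30 (SE 0.10). PDGFRB, THY1, COL1A1 and VIM are lower, with -0.98 (SE 0.13), -0.91 (SE 0.09), -0.59 (SE 0.07) and -0.20 (SE 0.07). The CPM of the lines overlap in VIM. With a library left out, the adjusted p by edgeR rises to as much as 0.163 for VIM and 0.0871 for DCN. COL1A2, LUM and PDGFRA pass in neither direction. Of the leukocyte markers, PTPRC and CD3E are at 0 in every library, 4 of 6 stay at or below 3 counts, and the summed level of the 6, mostly CD68, is 12.4 to 15.3 CPM in 1CT against 8.97 to 10.4 CPM in 1CT-A. The 3 endothelial markers sum to at most 0.514 CPM. In such bulk samples fewer cells of a type and less RNA per cell cannot be told apart.

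Interferons are secreted proteins that warn neighbouring cells of viral infection. Type I interferons bind the receptor built of IFNAR1 and IFNAR2, and interferon gamma binds the receptor built of IFNGR1 and IFNGR2. The kinases JAK1, TYK2 and JAK2 on these receptors then phosphorylate STAT factors, and STAT2 enters the nucleus with IRF9 in the complex ISGF3. ISGF3 binds the interferon-stimulated response element (ISRE) in promoters, and genes that answer interferon gamma often carry a gamma-activated site (GAS). Many of the induced genes are also kept at a low level in uninfected cells.

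The 51 genes do not differ between the lines as a block. Of the 40 members with enough counts to be tested, 18 are called lower in 1CT-A and 5 are called higher, and 17 are not called. A call means that edgeR's quasi-likelihood test over all 12514 genes gives an adjusted p below 0.05, and of these genes 26.0% are called lower and 25.0% higher. The same calls with a fold change of at least 2 leave 5 members lower (IFI27, LGALS3BP, IRF7, EPSTI1 and SAMD9L) and 3 members higher (IFI44L, OAS3 and IFIT1), where 9.92% and 4.00% of all genes tested pass. The median log2 fold change of the 40 members is -0.47, with 29 estimates below 0 and 11 above, and the median of all genes tested is -0.0067. The CPM of the 2 lines do not overlap in 26 of the 40 members, as in 59.7% of all genes tested. These shares describe a list that was selected with the comparison known, and nothing is read from their distance to the shares of all genes. A member that is not called is not shown to have the same level in both lines. Of the members tested, IFI27 passed the filter on low counts only through its 1CT libraries. The filter asks for 10 counts, scaled to the median library size, in as many libraries as a line has. IRF7, IFIT2 and BST2 reach that level in all 1CT libraries but not in all 1CT-A libraries. IFI44 reaches it in all 1CT-A libraries but not in all 1CT libraries.

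Summed over all 51 members, the level is 1250 ± 10.4 CPM in 1CT and 1161 ± 8.63 CPM in 1CT-A (SD, n = 3), and the sums of the lines do not overlap. The 4 members with the highest mean CPM over all 6 libraries, IFI16, IFITM2, IFITM3 and DTX3L, hold 44.3% to 46.3% of the sum in 1CT and 52.0% to 54.2% in 1CT-A. In 1CT alone, ISG15 and IFNGR2 have a higher mean CPM than DTX3L, although in 1CT replicate 3 IFNGR2 has 72.5 CPM and DTX3L 72.9 CPM.

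**Figure D1:**
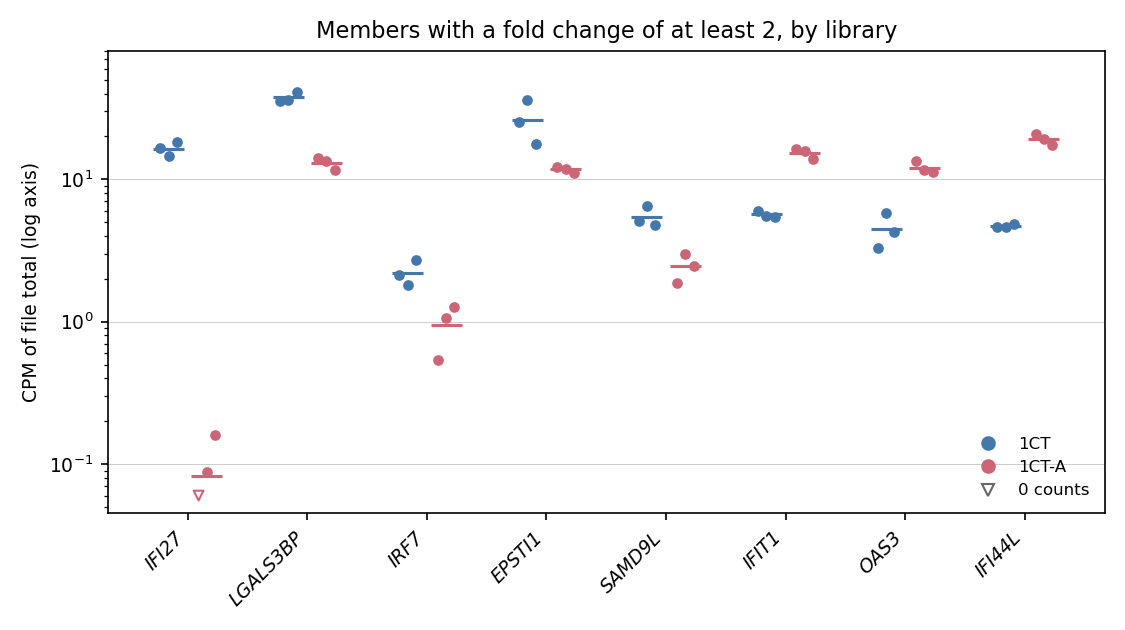
CPM of the file total on a log axis for the 8 members called with a fold change of at least 2, with 1 point per library, a bar at the mean of the 3 libraries of a line, and open triangles at the foot for libraries with 0 counts. IFI27 lies between 14.5 and 18.2 CPM in 1CT and at or below 0.159 CPM in 1CT-A, while IFI44L, OAS3 and IFIT1 lie higher in every 1CT-A library than in any 1CT library.

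The promoters of the members can be read for ISRE and GAS patterns, and windows are printed for the members with a fold change of at least 2 that hold a match, so that higher and lower genes can be compared letter by letter. RefSeq sequences on GRCh38.p14, from 250 bases before the annotated start to 50 after it, were matched to 40 of the 51 members by symbol. Of the members called lower with a fold change of at least 2, IRF7 was not matched to a promoter. The promoter of SAMD9L holds no match to either pattern, so neither gene has a window below. The patterns searched on both strands are GAAANNGAA as the core of an ISRE and TTCNNNGAA as a GAS, where N is any base, and a match of one may overlap a match of the other. Each window below runs 5′ to 3′ on the strand of the gene from base -170 to base 9, counted from the annotated first base as 0, and capitals mark bases of a match to either pattern. The IFIT1 window is chr10:89392453-89392632 on the plus strand, that of OAS3 is chr12:112938304-112938483 on the plus strand, and that of IFI44L is chr1:78620278-78620457 on the plus strand. The IFI27 window is chr14:94110566-94110745 on the plus strand, that of EPSTI1 is chr13:42992232-42992411 on the minus strand, and that of LGALS3BP is chr17:78979914-78980093 on the minus strand. The annotated start is that of RefSeq and can differ from the GENCODE gene start given with positions below. The windows of IFI27, OAS3 and IFI44L lie wholly inside the GENCODE genes, which start at bases 94104836, 112938051 and 78619902.
IFIT1: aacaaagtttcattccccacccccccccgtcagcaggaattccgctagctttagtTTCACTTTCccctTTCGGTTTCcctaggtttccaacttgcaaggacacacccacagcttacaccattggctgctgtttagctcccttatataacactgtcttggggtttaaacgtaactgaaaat
OAS3: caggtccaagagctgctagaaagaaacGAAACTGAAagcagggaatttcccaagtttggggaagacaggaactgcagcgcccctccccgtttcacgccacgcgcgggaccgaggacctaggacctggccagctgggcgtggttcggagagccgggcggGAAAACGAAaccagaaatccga
IFI44L: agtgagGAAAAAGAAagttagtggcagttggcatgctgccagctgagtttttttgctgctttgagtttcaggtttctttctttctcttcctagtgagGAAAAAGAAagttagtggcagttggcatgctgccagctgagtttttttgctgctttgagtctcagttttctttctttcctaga
IFI27: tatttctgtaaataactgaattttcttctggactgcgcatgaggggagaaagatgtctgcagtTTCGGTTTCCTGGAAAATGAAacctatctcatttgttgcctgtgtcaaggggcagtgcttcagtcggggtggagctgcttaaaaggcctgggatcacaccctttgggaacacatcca
EPSTI1: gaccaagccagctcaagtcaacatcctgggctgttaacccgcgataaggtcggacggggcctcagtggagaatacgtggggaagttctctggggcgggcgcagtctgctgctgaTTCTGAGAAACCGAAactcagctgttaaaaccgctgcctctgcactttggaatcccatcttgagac
LGALS3BP: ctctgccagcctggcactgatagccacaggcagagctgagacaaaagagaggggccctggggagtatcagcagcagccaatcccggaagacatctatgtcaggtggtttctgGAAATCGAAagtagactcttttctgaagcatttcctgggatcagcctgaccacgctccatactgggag

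IFIT1, OAS3 and IFI44L, the members called higher with a fold change of at least 2, each hold 2 ISRE core matches and no GAS match. In IFIT1 both are on the minus strand, at bases -115 to -107 and -102 to -94. In OAS3 they are far apart, at -143 to -135 and at -12 to -4. The matches of IFI44L at -164 to -156 and at -73 to -65 have the same letters because they lie in a direct repeat, in which 85 bases from -189 to -105 return unchanged from -98 to -14. IFI27, the member with the deepest fall, has a chain of 3 matches that overlap by their ends: an ISRE core on the minus strand from -107 to -99, a GAS from -101 to -93 and an ISRE core on the plus strand from -95 to -87. EPSTI1 has a GAS from -56 to -48 that overlaps an ISRE core from -50 to -42, and LGALS3BP has a single ISRE core from -58 to -50.

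Across the matched promoters, the ISRE core is found in 23 of 40 members (57.5%), compared with 2264 of 27305 promoters of the whole table (8.29%), and 14 members (35.0%) hold at least 2 matches, compared with 0.747% of all promoters. The GAS pattern is found in 9 of 40 members (22.5%) and in 7.88% of all promoters. Matches are found in members of either direction. Of the members called higher, 4 of 5 promoters hold an ISRE core, and of those called lower, 8 of 15 do, while the members not called have it in 6 of 13 and the members not tested in 5 of 7. The GAS pattern is found in 5 of the 15 promoters of members called lower and in 0 of the 5 of members called higher, a difference that was not tested. A match is a stretch of letters and not a measured binding site, and a promoter without one only lacks these letters in this window.

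**Figure D2:**
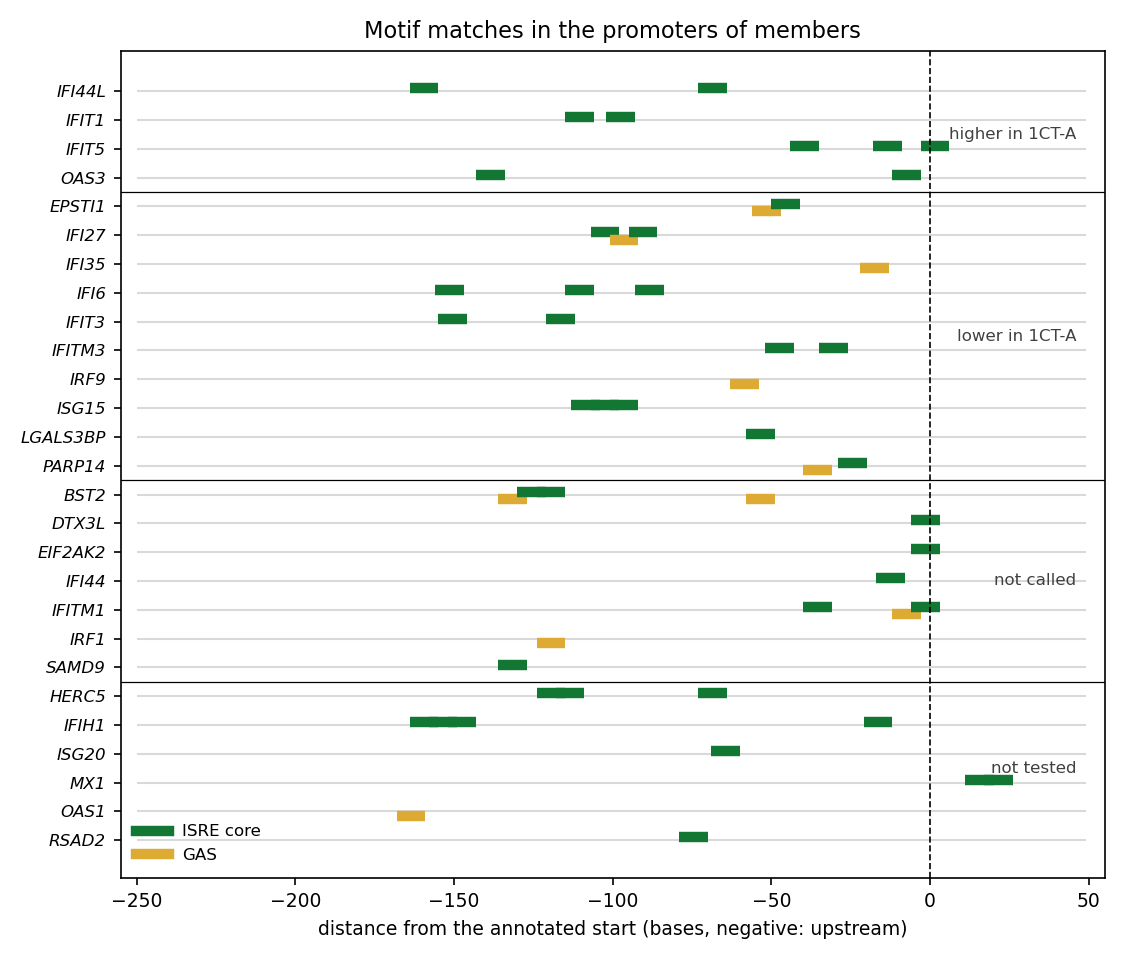
Positions of ISRE core matches (green) and GAS matches (yellow) along the promoters of the members that hold at least 1 match, with the distance from the annotated start in bases on the horizontal axis and members grouped by their call. ISRE core matches appear in all 4 groups, and of the 43 matches 37 lie within 200 bases upstream of the start.

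The receptor subunits that set the entry to the pathway are counted in every library. For type I interferon, IFNAR2 (at chr21:33205282-33265675, plus strand of GRCh38 in GENCODE release 44) has 6.74, 6.76 and 6.93 CPM in 1CT and 5.20, 5.27 and 3.57 CPM in 1CT-A. All 3 values of 1CT-A are below those of 1CT, and IFNAR2 is called lower with a log2 fold change of -0.59 (SE 0.20). This call is near the threshold, since it is lost with DESeq2 in place of edgeR and without 1CT replicate 1, 2 or 3 or without 1CT-A replicate 3, with log2 fold changes from -0.60 to -0.41. IFNAR1, its partner chain, has 57.5, 56.0 and 62.3 CPM in 1CT and 65.0, 49.8 and 55.5 CPM in 1CT-A, so the lines overlap and the log2 fold change is -0.084 (SE 0.11) without a call. For interferon gamma, IFNGR2 has 84.7, 82.5 and 72.5 CPM in 1CT and 55.5, 63.0 and 59.5 CPM in 1CT-A and is called lower with a log2 fold change of -0.47 (SE 0.08). IFNGR1, the chain that binds the ligand, has 9.94, 12.6 and 3.47 CPM in 1CT and 10.5, 10.8 and 8.09 CPM in 1CT-A. Its 1CT replicate 3 is far below the other two, the lines overlap, and the log2 fold change of 0.13 (SE 0.30) turns to -0.23 without that library, in neither case with a call.

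Among the 6 transcription factors, the interferon regulatory factors IRF7, IRF9 and IRF3 are called lower and none is called higher. Of all genes tested, 26.0% are called lower and 25.0% higher. IRF7, which drives the production of type I interferon and is itself induced by it, has 18, 15 and 21 counts in 1CT and 6, 12 and 16 counts in 1CT-A, or 2.13, 1.81 and 2.70 CPM in 1CT and 0.538, 1.05 and 1.27 CPM in 1CT-A. IRF7 is called lower with a log2 fold change of -1.22 (SE 0.36), the lines do not overlap, and the counts are few, so that without 1CT-A replicate 1 the value is -0.95 and no longer called. IRF9, the DNA-binding partner of STAT2 in ISGF3, has 3.43, 3.98 and 2.95 CPM in 1CT and 2.51, 1.76 and 1.67 CPM in 1CT-A, a log2 fold change of -0.85 (SE 0.27). Its call is lost with DESeq2 and without 1CT replicate 2, 1CT-A replicate 2 or 1CT-A replicate 3, with values from -0.76 to -0.73. IRF3, which is activated when viral RNA or DNA is sensed, has 17.2, 18.0 and 14.9 CPM in 1CT and 10.0, 12.6 and 14.5 CPM in 1CT-A, a log2 fold change of -0.47 (SE 0.15). It is not called without 1CT replicate 2, 1CT-A replicate 1 or 1CT-A replicate 2, with values from -0.47 to -0.34.

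IRF3 overlaps BCL2L12 on the opposite strand, and whether the authors' counting used the strand is not given in the sources used here. Reads inside the overlap could not be assigned without the strand, and their part in the counts of the 2 genes was not tested. BCL2L12 differs in the other direction, with 82.4 ± 6.04 CPM in 1CT and 131 ± 7.97 CPM in 1CT-A (SD, n = 3). Other called members overlap coding genes in GENCODE as well. IFNAR2, IRF9 and DDX58 do so on the same strand, and IFNGR2, IFI16 and SP110 on the opposite strand. The part of shared reads in their counts was not tested.

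The remaining factors are not called. STAT2 has 13.5, 16.7 and 19.1 CPM in 1CT and 12.8, 14.5 and 13.5 CPM in 1CT-A, and its log2 fold change of -0.31 (SE 0.14) is -0.44 with a call without 1CT replicate 1, the lowest of its line, and -0.17 without a call when 1CT replicate 3, the highest of its line, is left out. IRF1, an early activator of interferon gamma responses, has 17.2, 23.2 and 15.5 CPM in 1CT and 15.5, 19.3 and 12.4 CPM in 1CT-A, with a log2 fold change of -0.29 (SE 0.18). IRF2, which competes with IRF1 for the same DNA element, has 9.11, 10.1 and 12.7 CPM in 1CT and 9.50, 12.7 and 12.2 CPM in 1CT-A, with a log2 fold change of 0.073 (SE 0.17). The lines overlap in all 3 genes.

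**Figure D3:**
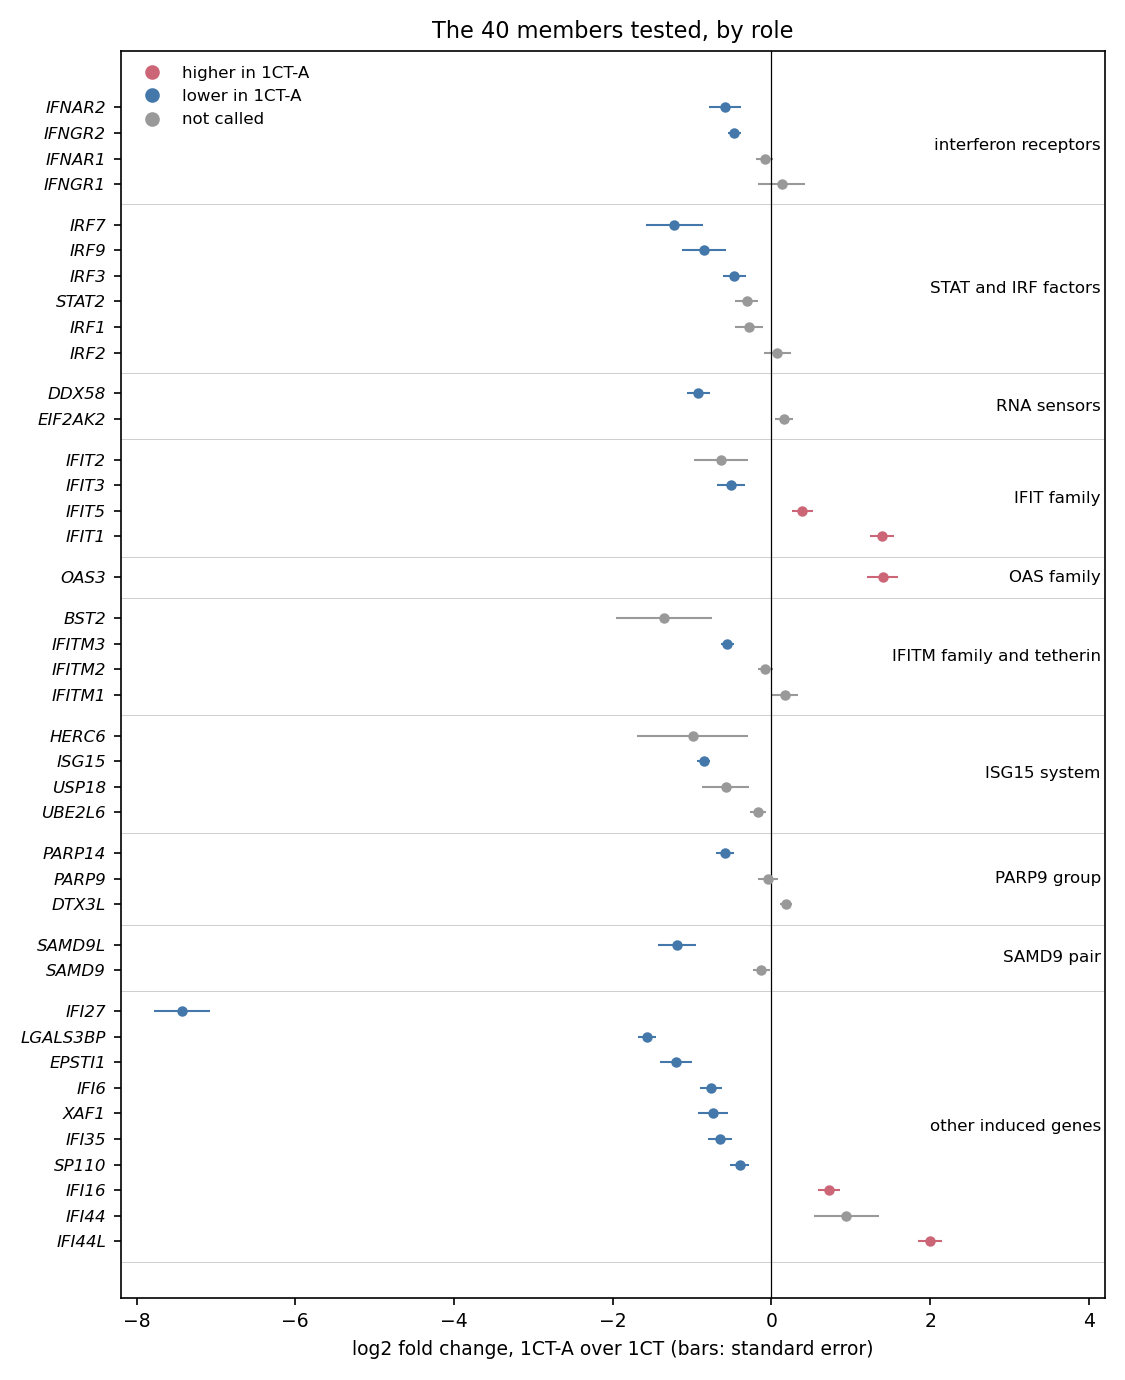
Log2 fold change of 1CT-A over 1CT with its standard error for the 40 members tested, grouped by role and colored by call. Blue points on the left include the receptor chains IFNAR2 and IFNGR2, 3 IRF factors and ISG15, while the 5 red points on the right are IFIT1, IFIT5, OAS3, IFI16 and IFI44L, and the point of IFI27 at -7.43 rests on 3 counts in 1CT-A and depends on the prior count of the fit.

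Of the sensors of viral RNA, DDX58 (RIG-I, listed as RIGI in GENCODE) is called lower. It recognizes short double-stranded RNA and has 14.4, 15.7 and 13.5 CPM in 1CT and 7.35, 9.39 and 6.98 CPM in 1CT-A, with a log2 fold change of -0.92 (SE 0.15) and no overlap between the lines. EIF2AK2, the kinase PKR that halts translation when double-stranded RNA is present, has 25.0, 24.8 and 20.7 CPM in 1CT and 26.3, 24.7 and 29.8 CPM in 1CT-A and is not called, with a log2 fold change of 0.16 (SE 0.11). The related helicases IFIH1 and DHX58 are too low to test, with at most 26 and 9 counts in any library.

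The IFIT proteins bind viral RNA and hinder its translation, and their genes, which sit side by side on chromosome 10, differ in opposite directions. IFIT1 (chr10:89392546-89406487, plus strand) has 51, 46 and 42 counts in 1CT and 181, 180 and 175 counts in 1CT-A, or 6.03, 5.55 and 5.39 CPM in 1CT and 16.2, 15.8 and 13.9 CPM in 1CT-A. Every 1CT-A library exceeds every 1CT library, and the fold change is 2.62, a log2 fold change of 1.39 (SE 0.15). IFIT5 (chr10:89414568-89421605, plus strand) has 25.9, 29.3 and 20.3 CPM in 1CT and 36.6, 29.2 and 35.6 CPM in 1CT-A and is called higher with a log2 fold change of 0.39 (SE 0.13), although 1CT-A replicate 2 lies just under 1CT replicate 2. Without 1CT replicate 3, 1CT-A replicate 1 or 1CT-A replicate 3 it is not called, with values from 0.27 to 0.35. IFIT3 (chr10:89327307-89377473, plus strand), in contrast, has 12.1, 8.69 and 10.9 CPM in 1CT and 8.51, 6.50 and 7.86 CPM in 1CT-A and is called lower with a log2 fold change of -0.51 (SE 0.17). This call too is lost with DESeq2 and without 1CT replicate 1, 1CT-A replicate 2 or 1CT-A replicate 3, with values from -0.52 to -0.40. IFIT2 (chr10:89283694-89309271, plus strand) has the fewest counts of the 4, with 14, 12 and 11 counts in 1CT and 8, 12 and 15 counts in 1CT-A, and is not called, with a log2 fold change of -0.63 (SE 0.35).

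The split within the family is plain in the ratio of counts within each library, which no scaling between libraries can move. For every count of IFIT3 there are 0.500, 0.639 and 0.494 counts of IFIT1 in 1CT and 1.91, 2.43 and 1.77 in 1CT-A. The ratio of IFIT1 to IFIT2 is 3.76 ± 0.11 in 1CT and 16.4 ± 5.62 in 1CT-A (SD, n = 3). The libraries are read at the 3′ end of transcripts, so these ratios compare counts and not amounts per length. The IFIT genes are paralogs and the reads of similar copies could be divided between them by the counting. IFIT1, IFIT2 and IFIT3 also overlap LIPA on the opposite strand in GENCODE, a lysosomal lipase gene with 29.4 ± 3.69 CPM in 1CT and 38.0 ± 1.35 CPM in 1CT-A (log2 fold change 0.33, SE 0.10, adjusted p = 0.0153 by edgeR), and the part of its reads in these differences was not tested.

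In the OAS cluster on chromosome 12, only OAS3 has enough counts to be tested. The enzymes of the cluster make the short oligoadenylates that switch on RNase L. OAS3 (chr12:112938051-112976460, plus strand) has 28, 48 and 33 counts in 1CT and 150, 133 and 141 counts in 1CT-A, or 3.31, 5.80 and 4.24 CPM in 1CT and 13.4, 11.7 and 11.2 CPM in 1CT-A. The lines do not overlap, and the fold change is 2.64, a log2 fold change of 1.40 (SE 0.20). Its neighbours on either side in the cluster are barely counted. OAS1 has 4, 1 and 3 counts in 1CT and 7, 0 and 0 counts in 1CT-A, and OAS2 has 4, 5 and 2 counts in 1CT and 2, 1 and 1 counts in 1CT-A, so neither could be tested. OASL, which lies apart from the cluster, has 9, 1 and 12 counts in 1CT and 1, 4 and 2 counts in 1CT-A.

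IFI44L and IFI44, neighbours on chromosome 1, are both higher in mean level in 1CT-A. IFI44L (chr1:78619902-78646145, plus strand), an induced gene with reported antiviral activity, has 39, 38 and 38 counts in 1CT and 234, 219 and 221 counts in 1CT-A, or 4.61, 4.59 and 4.88 CPM in 1CT and 21.0, 19.2 and 17.5 CPM in 1CT-A. The 1CT libraries lie within a narrow range, all 1CT-A libraries are above it, and the fold change of 3.98 (log2 fold change 1.99, SE 0.15) is the largest rise among the members, rank 102 of the 12514 genes tested from the highest. IFI44 (chr1:78649796-78664078, plus strand) has 4, 7 and 12 counts in 1CT and 18, 18 and 30 counts in 1CT-A and is not called, with a log2 fold change of 0.94 (SE 0.41). That value is 1.47 with a call without 1CT replicate 3, the highest of its line, but 0.61 without 1CT replicate 1 and 0.72 without 1CT-A replicate 3, neither called.

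**Figure D4:**
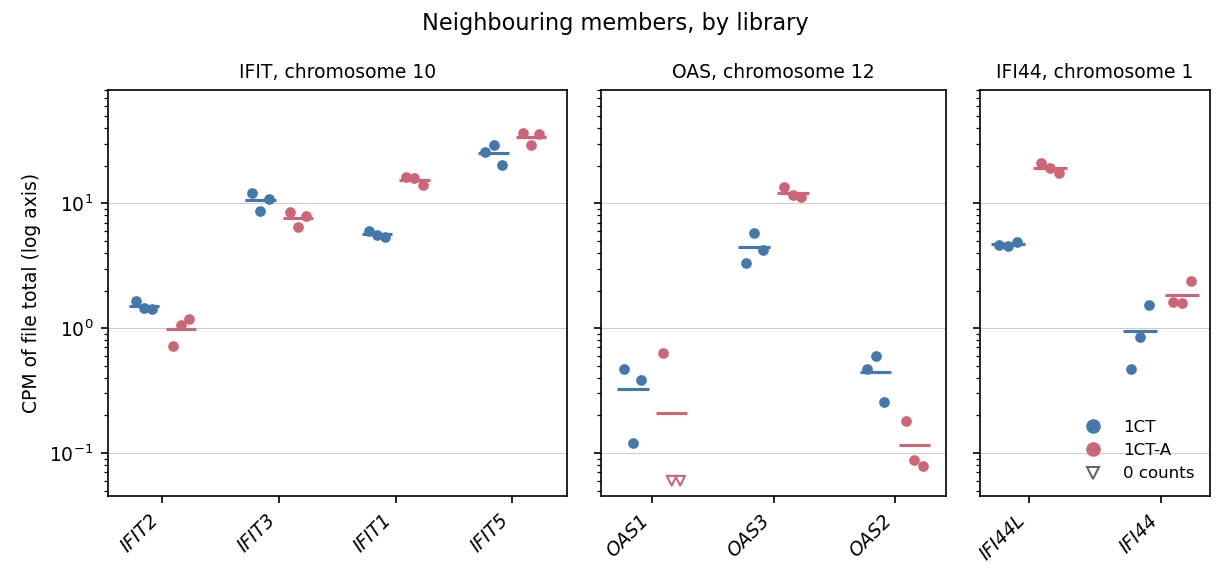
CPM of the file total on a log axis for the IFIT, OAS and IFI44 genes in their order along the chromosome, with 1 point per library, a bar at the mean of a line and open triangles for 0 counts. IFIT1, OAS3 and IFI44L are separated between the lines with 1CT-A above, while IFIT3 lies lower in 1CT-A and OAS1 and OAS2 stay under 1 CPM.

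The membrane-bound restriction factors are counted at very different levels. The IFITM proteins keep viruses from fusing with endosomal membranes. IFITM3 has 172, 179 and 208 CPM in 1CT and 129.8, 131 and 130.4 CPM in 1CT-A and is called lower with a log2 fold change of -0.56 (SE 0.08), while its close paralogs are not called. IFITM2 has 156, 156 and 195 CPM in 1CT and 172, 159 and 161 CPM in 1CT-A, with a log2 fold change of -0.08 (SE 0.09) that is 0.051 without 1CT replicate 3. IFITM1 has 9.58, 8.93 and 12.7 CPM in 1CT and 10.9, 14.1 and 10.9 CPM in 1CT-A, with a log2 fold change of 0.17 (SE 0.17). The counts of IFITM3 per count of IFITM2 are 1.10, 1.15 and 1.07 in 1CT and 0.756, 0.821 and 0.808 in 1CT-A, so the lines do not overlap in this ratio either, with the reserve that reads of such similar genes may have been divided between them. BST2, known as tetherin because it tethers budding virions to the cell, has 11, 49 and 12 counts in 1CT and 4, 25 and 12 counts in 1CT-A. Its replicate 2 is the highest library in both lines, and the log2 fold change of -1.36 (SE 0.61) is not called. The value rests on single libraries. Without 1CT replicate 2 it is -0.32 and without 1CT-A replicate 1 it is -0.95, neither called, while it is called at -1.72 without 1CT replicate 1, at -1.64 without 1CT replicate 3 and at -2.14 without 1CT-A replicate 2.

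In the ISG15 system, the modifier itself is called lower and the enzymes around it are not called. ISG15, a ubiquitin-like protein that is attached to other proteins after interferon, has 96.2, 84.3 and 98.1 CPM in 1CT and 52.9, 52.8 and 52.6 CPM in 1CT-A. The 1CT-A libraries are nearly equal, all of them below the 1CT libraries, and the log2 fold change is -0.85 (SE 0.08). UBE2L6, the enzyme that passes ISG15 on, has 26.9, 29.6 and 26.2 CPM in 1CT and 25.4, 26.3 and 24.0 CPM in 1CT-A, and USP18, the protease that removes it and also damps the type I receptor, has 32, 20 and 17 counts in 1CT and 18, 24 and 26 counts in 1CT-A. Their log2 fold changes of -0.17 (SE 0.10) and -0.57 (SE 0.30) are not called. HERC6 has 10, 1 and 19 counts in 1CT and 13, 4 and 5 counts in 1CT-A, with 1CT replicate 2 far below the other two, and its log2 fold change of -0.99 (SE 0.70) is -1.54 with a call without that library and -0.083 without 1CT replicate 3, so that no direction is read from it. HERC5, the human ligase for ISG15, has at most 10 counts in a library and was not tested.

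PARP9 and DTX3L form a complex that modifies chromatin and viral proteins, and their genes lie head to head on opposite strands of chromosome 3. Their starts overlap only from base 122564338 to 122564577, and the libraries are read at the 3′ end of transcripts. Reads inside that overlap could not be assigned without the strand, and their part in the counts was not tested. PARP9 has 18.2, 19.6 and 16.6 CPM in 1CT and 19.9, 17.6 and 16.7 CPM in 1CT-A, with a log2 fold change of -0.044 (SE 0.12). DTX3L has 69.8, 73.2 and 72.9 CPM in 1CT and 86.7, 83.3 and 82.4 CPM in 1CT-A, and although all 1CT-A libraries are above the 1CT libraries, the log2 fold change of 0.19 (SE 0.08) is not called. With other settings it lies between 0.13 with upper-quartile normalization, not called, and 0.23, and it is called at 0.22 when only the library size is used for scaling, at 0.23 without the filter on low counts and at 0.21 without 1CT replicate 3. PARP14, a relative of PARP9, has 26.4, 29.3 and 23.9 CPM in 1CT and 19.4, 18.9 and 16.3 CPM in 1CT-A and is called lower with a log2 fold change of -0.59 (SE 0.12).

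SAMD9 and SAMD9L are adjacent paralogs on chromosome 7 that restrain growth and poxvirus replication. SAMD9 has 30.1, 28.9 and 24.5 CPM in 1CT and 28.1, 25.5 and 25.0 CPM in 1CT-A and is not called, with a log2 fold change of -0.13 (SE 0.11). SAMD9L (chr7:93130056-93148385, minus strand) has 43, 54 and 37 counts in 1CT and 21, 34 and 31 counts in 1CT-A, or 5.09, 6.52 and 4.75 CPM in 1CT and 1.88, 2.98 and 2.46 CPM in 1CT-A. It is called lower by a factor of 2.29, a log2 fold change of -1.19 (SE 0.24), with no overlap between the lines. For every count of SAMD9L there are 5.17 ± 0.74 counts of SAMD9 in 1CT and 11.2 ± 3.31 in 1CT-A (SD, n = 3).

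The largest single difference belongs to IFI27 (chr14:94104836-94116695, plus strand), which encodes a small mitochondrial membrane protein and is among the genes most strongly induced by type I interferon. It has 140, 120 and 142 counts in 1CT and 0, 1 and 2 counts in 1CT-A, which is 16.6, 14.5 and 18.2 CPM in 1CT and 0, 0.0878 and 0.159 CPM in 1CT-A. Over the 3 libraries of a line there are 402 counts in 1CT and 3 in 1CT-A, a ratio of CPM of 192 with a 95% interval from 65.3 to 935 that covers counting error only. Its close relative IFI6, another mitochondrial protein that restrains apoptosis, does not follow it in size, with 14.0, 17.6 and 15.3 CPM in 1CT and 9.05, 10.1 and 9.28 CPM in 1CT-A and a log2 fold change of -0.76 (SE 0.14), called lower.

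LGALS3BP (chr17:78971238-78979947, minus strand), a secreted glycoprotein that binds galectins and matrix proteins, has 300, 299 and 321 counts in 1CT and 158, 152 and 146 counts in 1CT-A, or 35.5, 36.1 and 41.2 CPM in 1CT and 14.2, 13.3 and 11.6 CPM in 1CT-A. The lines are far apart, with a fall by a factor of 2.97 and a log2 fold change of -1.57 (SE 0.12). EPSTI1 (chr13:42886388-42992271, minus strand), an induced gene first described in epithelial and stromal co-cultures, has 213, 297 and 138 counts in 1CT and 137, 135 and 140 counts in 1CT-A, or 25.2, 35.9 and 17.7 CPM in 1CT and 12.3, 11.8 and 11.1 CPM in 1CT-A. The 1CT libraries spread widely while those of 1CT-A are close together, all of the latter are lower, and the fall is by a factor of 2.30 (log2 fold change -1.20, SE 0.20).

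The other induced genes differ less. XAF1, which antagonizes the apoptosis inhibitor XIAP, has 9.11, 9.30 and 11.9 CPM in 1CT and 5.29, 7.72 and 5.63 CPM in 1CT-A, with a log2 fold change of -0.74 (SE 0.19). IFI35 has 9.70, 12.3 and 12.1 CPM in 1CT and 7.44, 7.46 and 7.38 CPM in 1CT-A, with a log2 fold change of -0.65 (SE 0.15). SP110, a nuclear body protein, has 33.7, 29.1 and 35.2 CPM in 1CT and 28.3, 26.2 and 21.9 CPM in 1CT-A, with a log2 fold change of -0.40 (SE 0.12). All 3 are called lower and do not overlap between the lines, and the call of SP110 is lost without 1CT-A replicate 3, where its value is -0.29. IFI16, a nuclear sensor of foreign DNA, is the exception, with 164, 150.4 and 98.5 CPM in 1CT and 221, 229.7 and 252 CPM in 1CT-A. It has the most counts of all members in 1CT-A, every 1CT-A library is above every 1CT library, and it is called higher with a log2 fold change of 0.73 (SE 0.14).

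The 11 members that could not be tested include some of the best known interferon-induced genes. RSAD2 (viperin) and CMPK2, which share a locus and block viral replication through modified nucleotides, have at most 3 and 4 counts. MX1 has 6, 5 and 7 counts in 1CT and 3, 0 and 3 counts in 1CT-A, and MX2 has 9, 4 and 6 counts in 1CT and 4, 3 and 0 counts in 1CT-A, and both encode dynamin-like GTPases that trap viral capsids. ISG20, an exonuclease, has at most 9 counts. The mean CPM is higher in 1CT for 10 of the 11 and higher in 1CT-A for IFIH1. At these levels the scarce counts of genes that should be silent move in the same direction, since the 398 olfactory receptor symbols of the files sum to 12.8 to 16.4 CPM in 1CT against 5.47 to 5.83 CPM in 1CT-A, and the part of such counts in the low members was not tested.

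To place the members in their pathway, 96 further genes were taken from lists of interferon, signaling, sensing and interferon-induced genes. Of these, 59 have enough counts, and the median log2 fold change is -0.055, while 24 have no count in any library. In 1CT-A, 18 of the 59 (30.5%) are called lower and 9 (15.3%) higher, where 26.0% and 25.0% of all genes tested are called. These lists too were chosen with earlier results known, and nothing is read from the distance between these shares. The cells show next to no transcript of the interferons themselves. Of 22 interferon genes, 20 have no count in any library, which with 3 counts as the visible limit allows at most 0.385 CPM in any library, and IFNL4 has 1 count in all. The exception is IFNE, a type I interferon of epithelia, with 16, 19 and 15 counts in 1CT and 9, 13 and 10 counts in 1CT-A, and a log2 fold change of -1.19 (SE 0.33, adjusted p = 0.00818 by edgeR). Its counts are few, and IFNE reaches the filter level in all 1CT libraries but not in all 1CT-A libraries. The part of scarce counts like those of the olfactory receptor symbols in this difference was not tested.

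Of 14 further signaling genes, 9 were tested, 1 is called lower and 3 higher, where 26.0% and 25.0% of all genes tested are called. The 3 called higher are SOCS1, SOCS3 and PTPN2. SOCS3 is no longer called without 1CT-A replicate 2 (log2 fold change 0.52, adjusted p = 0.102 by edgeR), nor is PTPN2 without 1CT replicate 3, 1CT-A replicate 2 or 1CT-A replicate 3, with log2 fold changes from 0.22 to 0.31. PIAS1, another inhibitor of STAT signaling in the list, is not called, with a log2 fold change of -0.046 (SE 0.20). SOCS1, which blocks JAK kinases and is itself induced by interferon, has 6, 17 and 12 counts in 1CT and 57, 66 and 78 counts in 1CT-A, or 0.710, 2.05 and 1.54 CPM in 1CT and 5.11, 5.79 and 6.19 CPM in 1CT-A. All 1CT-A libraries are above those of 1CT, with a log2 fold change of 1.95 (SE 0.30, adjusted p = 0.000132 by edgeR). SOCS1 reaches the filter level in all 1CT-A libraries but not in all 1CT libraries. The kinases JAK1, JAK2 and TYK2 are not called, with log2 fold changes of -0.16 (SE 0.08), 0.13 (SE 0.12) and -0.21 (SE 0.12) and adjusted p of 0.115, 0.399 and 0.169 by edgeR. The receptor chain IFNLR1 for type III interferon and the factors IRF4, IRF5 and IRF8 never exceed 2 counts.

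Of 10 further sensing genes, 6 were tested, 3 are called lower and 0 higher, where 26.0% and 25.0% of all genes tested are called. With so few genes no direction is read from these counts. The largest fall is that of TMEM173 (STING), which relays the sensing of cytosolic DNA to IRF3, with 279, 256 and 272 counts in 1CT and 69, 92 and 88 counts in 1CT-A, or 33.0, 30.9 and 34.9 CPM in 1CT and 6.18, 8.07 and 6.98 CPM in 1CT-A. TMEM173 shows a log2 fold change of -2.25 (SE 0.13, adjusted p = 2.3e-08 by edgeR), and each 1CT-A library is far below each 1CT library. The cGAS gene that feeds STING, MB21D1, is at most 7 counts in a library and was not tested.

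Of 50 further interferon-induced genes, 43 were tested, 13 (30.2%) are called lower and 6 (14.0%) higher, where 26.0% and 25.0% of all genes tested are called. DDX60L, a helicase-like gene, has 7.22, 9.78 and 10.0 CPM in 1CT and 2.69, 2.81 and 2.78 CPM in 1CT-A, a log2 fold change of -1.74 (SE 0.20, adjusted p = 1.4e-05 by edgeR). PML, the organizer of nuclear bodies, has 21.4, 33.0 and 25.8 CPM in 1CT and 12.4, 11.9 and 11.7 CPM in 1CT-A, a log2 fold change of -1.19 (SE 0.15, adjusted p = 2.5e-05 by edgeR). APOL1, an apolipoprotein that lyses trypanosomes, has 19.6, 18.2 and 25.0 CPM in 1CT and 8.96, 11.1 and 10.6 CPM in 1CT-A, a log2 fold change of -1.07 (SE 0.15, adjusted p = 6.7e-05 by edgeR). PLSCR1, a phospholipid scramblase with antiviral activity, is the only one of the 43 called with a fold change of at least 2 in the other direction, with 7.69, 10.1 and 5.91 CPM in 1CT and 29.0, 30.5 and 29.3 CPM in 1CT-A, a log2 fold change of 1.86 (SE 0.15, adjusted p = 6.0e-07 by edgeR). The lines do not overlap in any of these 4 genes.

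**Figure D5:**
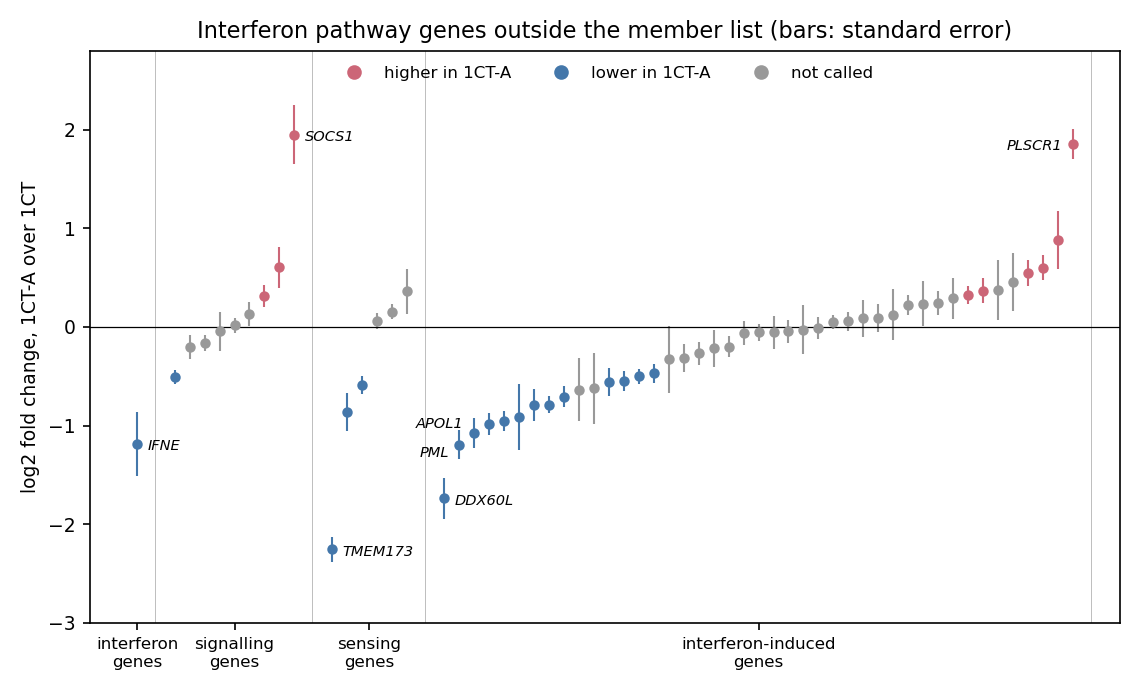
Log2 fold change of 1CT-A over 1CT with its standard error for the 59 tested pathway genes outside the 51 members, ordered by value within 4 lists and colored by call. Named points are those called with a fold change of at least 2, with TMEM173 the lowest at -2.25 and SOCS1 and PLSCR1 the highest at 1.95 and 1.86.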

How the data were processed

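Total RNA of 3 libraries of 1CT and 3 of 1CT-A was made into QuantSeq 3′ libraries per the labels, from RNA extracted with Trizol. The authors deposited raw counts, whole numbers of reads per gene symbol, in 1 file per library, without normalization and without pooling of replicates. The submitters' processing notes name Bowtie2, edgeR and the build hg19 without versions. The counting tool, the annotation and the use of strand are not given in the sources used here. Such 3′ counts do not scale with transcript length.

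Repeated entries of a symbol are summed (286 symbols, none of them a member), and levels are CPM of the file total, given as mean ± SD where replicates are averaged. Fold changes come from edgeR 4.0.16 in R 4.3.3, with TMM factors of 0.976 to 1.02 and genes kept by filterByExpr at its minimum count of 10. The quasi-likelihood test compares 1CT-A with 1CT, with no block, and p-values are adjusted after Benjamini and Hochberg over 12514 genes. An exact permutation test of 3 against 3 libraries cannot go below p = 0.1 and was not used. The fit was run on counts simulated with a dispersion shared by all genes, as a check of the code only. That run does not measure how well the calls hold in these libraries. Replicates differ by more than counting noise, as their chi-square divided by its degrees of freedom is 3.00 to 8.42. The values of 7.06 and 8.42 belong to the pairs of 1CT replicate 3 with 1CT replicates 1 and 2. All other pairs within a line lie between 3.00 and 4.35. Same-numbered libraries do not deviate together (correlations of -0.16, 0.22 and -0.14 over 8231 genes), so the numbers are not taken as pairs.

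The members, the pathway and marker lists and the named genes were chosen with earlier results of these data known. Named with values in each library are the members called with a fold change of at least 2, the receptors, the STAT and IRF factors and, in part, the other members by role. Outside the members they are genes called with a fold change of at least 2, at most 4 in each direction, as well as JAK1, JAK2, TYK2 and APC. Some genes of the lists are not reported here. APOL1, as the fifth fall, and SOCS3, PTPN2, PIAS1, LIPA, BCL2L12 and pathway genes with hardly any count were named after their values were seen. Positions are from GENCODE release 44 on GRCh38 and promoters from RefSeq on GRCh38.p14, and they describe these annotations and not the authors' counting. Alternatives were other normalizations, filters and thresholds, DESeq2 1.42.0, limma-voom (limma 3.58.1), the replicate block and each library left out in turn. Intervals and floors cover counting error only.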

Additional observations from a re-analysis of the deposited data

How the results depend on the processing

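No alternative turns the direction of a called member, and of the 23 called members 15 keep their call in all 15 other fits. IFI27 keeps it wherever it is tested, which it is not with at least 10 counts in every library, and IFIT3, IFIT5, IFNAR2, IRF3, IRF7, IRF9 and SP110 lose it in at least 1 of them. When calls need an unadjusted p under 0.01 and a change by a factor of 2 or more, 3 members are higher and 5 lower in place of 5 and 18, and of the other pathway genes 2 are higher and 5 lower in place of 9 and 18, where an adjusted p under 0.01 leaves 5 higher. When members below a mean of 10 CPM are dropped, which was tried after seeing the data, 10 are lower. The median log2 fold change of the members, -0.47, is -0.43 by library size only, -0.52 with upper-quartile normalization, -0.51 without the filter and -0.37 with at least 10 counts in every library. When each library is left out in turn, the median runs from -0.46 to -0.39, members higher from 4 to 6, members lower from 14 to 18, members with a fold change of at least 2 from 8 to 10, and other pathway genes higher from 6 to 11 and lower from 17 to 20. Scaled by TMM, the summed level is 1269 CPM in 1CT and 1147 CPM in 1CT-A. Scaling moves the median of all genes from -0.0067 to 0.031 by library size only, with 3441 genes higher and 3014 lower, and to -0.063 with upper-quartile normalization, with 2681 higher and 3661 lower.

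The estimates of 5 members that are not called change sign when libraries are left out in turn, with ranges of -0.19 to 0.011 for IFNAR1 (above 0 without 1CT-A replicate 2), -0.23 to 0.49 for IFNGR1 (below 0 without 1CT replicate 3), -0.031 to 0.23 for IRF2 (below 0 without 1CT replicate 1), -0.14 to 0.051 for IFITM2 (above 0 without 1CT replicate 3) and -0.12 to 0.016 for PARP9 (above 0 without 1CT replicate 2 or 1CT-A replicate 3). PARP9 is also 0.0012 without the filter on low counts. With DESeq2 15 members are lower, as IFNAR2, IRF9 and IFIT3 are not called. With the replicate block, 5 members are higher and 19 lower, as BST2 gains a call (-1.32, adjusted p = 0.0072 by edgeR) and no other member's call changes. The 11 members with too few counts for the main fit enter the fit without the filter on low counts. That fit calls 7 members higher and 22 lower, and 12 members with a fold change of at least 2. Of its 19169 genes, 3674 are called higher and 3564 lower. At an adjusted p under 0.01, the main fit leaves 4 members higher and 12 lower. The cause of these shifts was not tested.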
